A study of Mus musculus with 49 samples.

Results

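The genes described here are 37 genes of sterol and fatty acid synthesis, followed in mouse splenic CD8+ T cells that were given interleukin 2 (IL-2) and in which STAT5A or STAT5B could not be phosphorylated on its critical tyrosine. The 37 genes were chosen by name, from the known roles of their products, out of 23992 gene symbols in the deposited table. Their measured values were not used for the choice, although earlier results of these data were known when it was made. They comprised 17 enzymes of the sterol pathway, 6 regulators and carriers, 3 enzymes of fatty acid synthesis, 7 desaturases and elongases, 3 acyl-CoA synthetases and the mitochondrial thiolase Acat1. All 37 passed the filter on low counts and were tested with 15566 genes in all.

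Sterols are built from acetyl-CoA through mevalonate, isoprenoid units and squalene to lanosterol and then cholesterol, whereas fatty acids are built from acetyl-CoA by acetyl-CoA carboxylase and fatty acid synthase and are then desaturated, elongated and activated with CoA. Transcription of both pathways is driven by the sterol regulatory element binding proteins (SREBPs), made from Srebf1 and Srebf2, which are escorted from the endoplasmic reticulum by SCAP and held back there by the INSIG proteins when sterols are plentiful. T cells that leave the resting state and divide need new membrane, and the SREBP pathway is known to be needed for the clonal expansion of CD8+ T cells. IL-2 acts in these cells through JAK1 and JAK3, which phosphorylate STAT5A and STAT5B, the products of closely related genes.

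Libraries were made from purified splenic CD8+ T cells of mice on the C57BL/6J background, backcrossed for 6 generations, of both sexes and 8 to 24 weeks of age. In the Stat5a line the knock-in (KI) mice were homozygous for an allele, made by CRISPR/Cas9, that codes for phenylalanine in place of the critical tyrosine of STAT5A and also carries 3 silent changes, and in the Stat5b line KI mice carried the matching change of STAT5B. Each line had its own wild-type (WT) littermates, every cell of the mouse carried the allele, and Stat5a KI cells kept WT Stat5b and the reverse. Cells were collected without IL-2 (0 hr) or after 4, 24 and 48 hr in medium that held recombinant human IL-2 at 500 IU per ml, with 3 libraries in each of the 16 groups. The sources do not say whether the 3 replicates of a group were separate mice, so p-values measure the spread between these libraries.

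Abundance is given as RPKM, which is the read count scaled for transcript length and library size, and differences are log2 fold changes fitted to read counts with edgeR and shown with their SE. The libraries used held 17369112 to 60200653 reads on the longest transcript of each gene, with a median of 41410666. RPKM is scaled by all mapped reads and the fit by trimmed means over genes, so a ratio of RPKM values can differ from the fitted fold change. Calls required both a fold of at least 2 and p no greater than 0.05 after Benjamini-Hochberg adjustment, and counts at the adjusted p alone are given beside those calls.

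A pair of Stat5a line libraries at 4 hr stood apart. KI replicate 3 held 1028515 reads, 5.68% of its mapped reads, on these transcripts, against 44.86 to 84.43% in the other libraries, and it was left out, so that Stat5a KI at 4 hr rests on 2 libraries. WT replicate 2 at 4 hr was kept, but it held the fewest reads of the libraries used and the lowest of these shares. The 37 genes summed to 254 RPKM in it and to 501 and 476 RPKM in replicates 1 and 3, and Srebf2 alone read 12.6 RPKM against 41.5 and 35.2 RPKM. Counts and named genes that rest on it are therefore also given without it.

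The labelled cell type was checked with markers. Cd8a, Cd8b1, Cd3e, Cd3d and Cd3g summed to 932 to 1298 RPKM in WT cells at 0 hr and to 1030 to 1184 RPKM in WT cells at 48 hr, with Cd8b1 the most abundant. Markers of other splenic cells were also read. The 6 B cell markers, led by Cd79a, summed to 49.8 to 145.7 RPKM in Stat5a WT and 221 to 270.6 RPKM in Stat5a KI at 0 hr, and to 47.9 to 55.5 RPKM in Stat5b WT and 197.7 to 202.9 RPKM in Stat5b KI. In both lines every KI library was above every WT library for these markers. Erythroid markers of the Stat5b line at 0 hr summed to 37.9, 56.1 and 116.9 RPKM in WT and 969.4, 390.7 and 571.1 RPKM in KI, where replicate 1 came close to its CD8 and CD3 sum of 1016 RPKM, and the myeloid markers summed to 34.5 to 43 RPKM in WT and 129.5 to 188.4 RPKM in KI. Erythroid sums of the Stat5a line overlapped (62.3 to 356.1 RPKM in WT and 139.3 to 390 RPKM in KI) and the myeloid sums did not (34.9 to 64.4 RPKM and 86.5 to 150.8 RPKM). The CD8 and CD3 markers thus had the highest sum in each of these libraries, with RNA of other cells beside them. Within Stat5a WT, replicate 3 had the lowest B cell sum at each time, 49.8 RPKM at 0 hr beside 136.6 and 145.7 RPKM. RNA from such cells is part of every bulk value below, and in bulk RNA fewer cells of a type and less RNA per cell cannot be told apart.

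Promoter sequence helps to place these genes, since SREBPs act at sterol elements together with NF-Y, which binds CCAAT boxes. RefSeq windows reaching from 250 bases before to 50 bases after a start site (mouse build GRCm38.p6) were matched by symbol for 29 of the 37 genes, in 38 windows, and were searched on both strands. A CCAAT box (CCAAT) was found in 23 of the 29 genes (79.3%), against 41.1% of all 27025 genes with a window. An E-box (CACGTG) was found in 6 genes (20.7% against 8.09%), and the sterol element TCACNCCAC in 1 gene, Hmgcs1 (3.45% against 1.44%). The spaced palindrome TTCNNNGAA, to which STAT5 is known to bind, was found in 1 gene, Ebp (3.45% against 9.55%). These are matches of letters in a short window and describe the sequence alone. No window was matched for Fdps, Fdft1, Sqle, Stard4, Acat1, Scd1, Scd2 or Fads1, so the matches do not cover these genes. The 250 bases before the start are printed for 5 genes of both pathways that are described below, in coding orientation, with the sterol element and CCAAT boxes of either strand (CCAAT or ATTGG) in capitals.
Hmgcs1: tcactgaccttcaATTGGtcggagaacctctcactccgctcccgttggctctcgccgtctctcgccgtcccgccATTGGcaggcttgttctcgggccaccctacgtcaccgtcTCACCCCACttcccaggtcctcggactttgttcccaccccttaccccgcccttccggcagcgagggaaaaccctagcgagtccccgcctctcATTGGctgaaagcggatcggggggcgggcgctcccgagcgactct
Idi1: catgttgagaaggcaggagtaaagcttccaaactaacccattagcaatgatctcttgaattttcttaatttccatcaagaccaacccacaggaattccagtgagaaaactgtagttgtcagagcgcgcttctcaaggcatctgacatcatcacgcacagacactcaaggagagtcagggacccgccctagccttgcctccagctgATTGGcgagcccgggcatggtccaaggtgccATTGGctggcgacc
Cyp51: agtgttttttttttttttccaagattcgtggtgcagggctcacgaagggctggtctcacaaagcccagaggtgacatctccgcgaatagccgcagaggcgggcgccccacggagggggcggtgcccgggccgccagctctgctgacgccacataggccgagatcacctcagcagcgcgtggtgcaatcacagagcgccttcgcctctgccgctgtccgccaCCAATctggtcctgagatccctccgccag
Lss: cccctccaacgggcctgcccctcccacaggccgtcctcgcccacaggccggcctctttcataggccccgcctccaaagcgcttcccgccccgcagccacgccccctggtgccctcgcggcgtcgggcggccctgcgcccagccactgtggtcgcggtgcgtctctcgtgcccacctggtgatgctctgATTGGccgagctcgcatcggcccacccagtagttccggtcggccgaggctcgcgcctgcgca
Fasn: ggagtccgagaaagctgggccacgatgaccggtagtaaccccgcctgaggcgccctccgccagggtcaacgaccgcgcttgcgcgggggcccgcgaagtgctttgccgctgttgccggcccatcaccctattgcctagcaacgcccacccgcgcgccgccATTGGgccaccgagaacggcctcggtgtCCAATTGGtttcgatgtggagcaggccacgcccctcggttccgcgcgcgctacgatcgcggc

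Hmgcs1, which makes HMG-CoA, lies on the plus strand at chr13:119690101-119690350 in this window and held the sterol element and 3 CCAAT boxes. Idi1 (chr13:8885356-8885605, plus strand) held 2 CCAAT boxes, and Lss (chr10:76531355-76531604, plus strand) and Cyp51 (chr5:4104698-4104947, minus strand) held 1 each. Fasn (chr11:120824548-120824797, minus strand) held 3, of which 2 overlap in the letters CCAATTGG.

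In resting WT cells the 37 genes spanned a wide range of abundance. Over the 6 WT libraries of both lines at 0 hr, the median level was highest for Srebf2 (43.8 RPKM, range 41.9 to 48.1), Acly (41.4 RPKM, range 38.7 to 42.3) and Elovl5 (39.5 RPKM, range 35.4 to 44.9), and the ranges of these neighbours overlap. ACLY splits citrate into acetyl-CoA, the substrate of both pathways, and ELOVL5 elongates polyunsaturated fatty acids. Fads2, a fatty acid desaturase, was lowest with a median of 0.822 RPKM. At 48 hr with IL-2 the order had changed, with Acsl5 (93.0 RPKM), Acly (73.1 RPKM), Fdps (63.7 RPKM) and Fasn (59.2 RPKM) at the top and Fads2 (1.69 RPKM) still at the bottom.

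The first comparison asks how the pathway changes in WT cells over time in culture with IL-2. Every 0 hr library was collected without IL-2 and every later library after culture with it. No library came from cells cultured without IL-2, so effects of IL-2 and of time in culture cannot be told apart. Most of the 37 genes rose over 48 hr, the sterol enzymes and the fatty acid synthesis genes among them, while the desaturase Scd1 fell. In Stat5a WT cells 18 genes were called higher and 1 lower at 48 hr, against a background of 14.3% of all genes tested higher and 22.3% lower. In Stat5b WT cells 19 were higher and 1 lower, against 14.6% and 20.7%. At the adjusted p alone 33 and 32 of the 37 were higher in the Stat5a and Stat5b lines (89.2% and 86.5%), with 34.1% and 33.1% of all genes higher. In each line 2 were lower, with 37.7% and 36.8% of all genes lower. The median log2 fold change of the 37 was 1.00 in both lines, beside -0.12 and -0.13 over all genes tested. Each line has its own WT and 0 hr libraries, and within a line every time point was compared with the same 0 hr libraries.

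**Figure D1:**
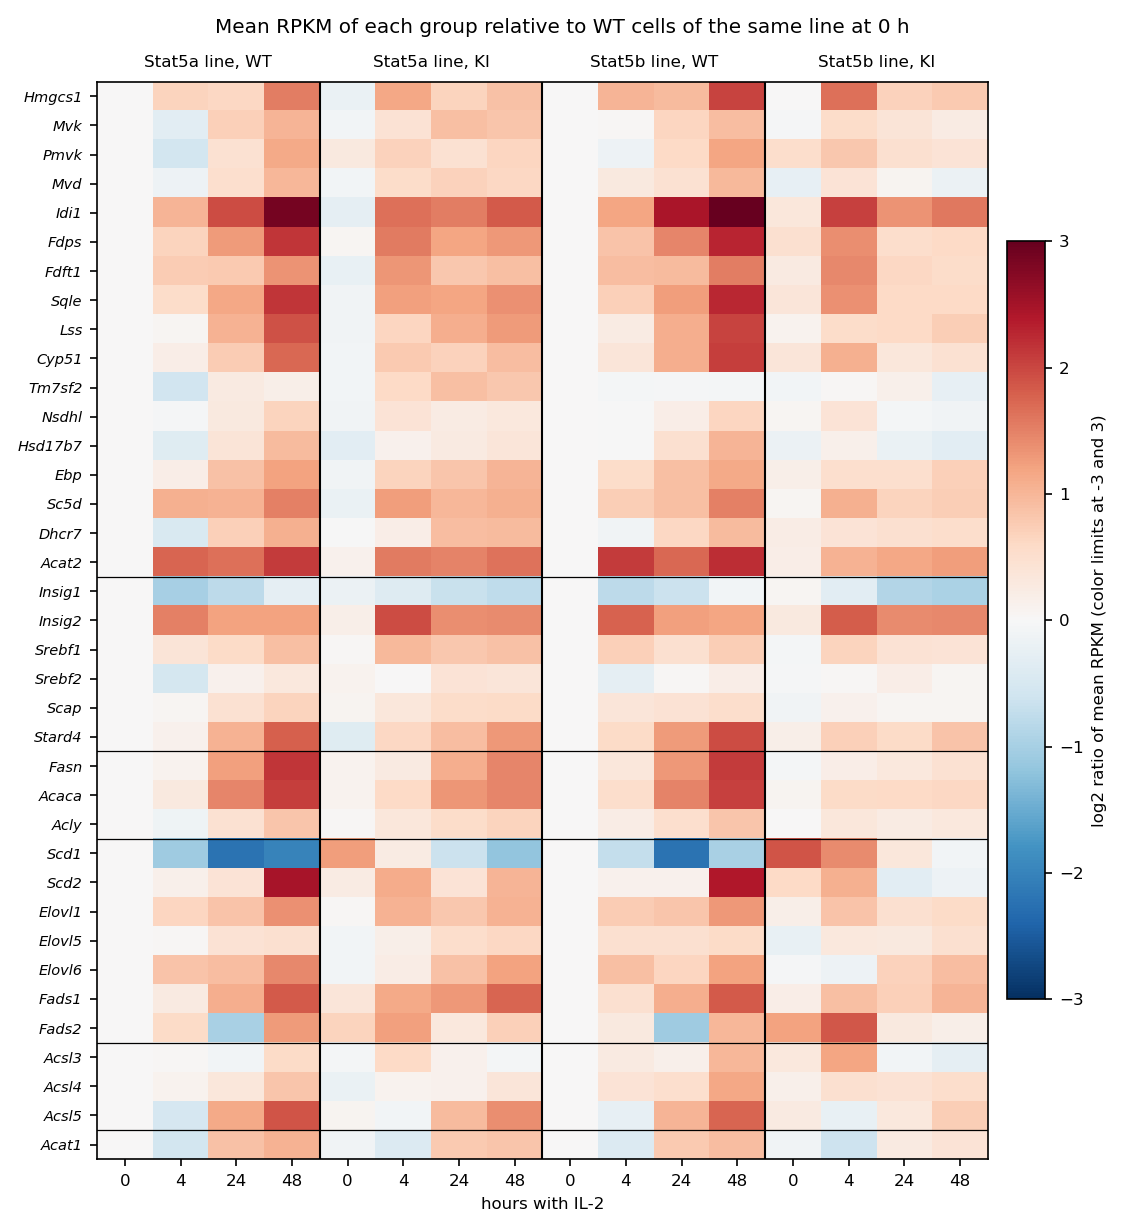
Mean RPKM of each of the 37 genes (rows, ordered by role) in each of the 16 groups (columns), as the log2 ratio to WT cells of the same line at 0 hr. Most rows of sterol enzymes and fatty acid synthesis are highest in the WT columns at 48 hr and lower in the KI columns beside them, Scd1 goes below its 0 hr level, and the Stat5a WT column at 4 hr includes the library that stands apart.

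The rise built up over time. At 4 hr the WT cells had 4 genes called higher in the Stat5a line (Acat2, Idi1, Insig2 and Sc5d) and 3 in the Stat5b line (Acat2, Idi1 and Insig2), with backgrounds of 10% and 5.83% higher. At the adjusted p alone 11 and 15 were higher, with 29.5% and 25.1% of all genes, so the share was near the background in the Stat5a line and above it in the Stat5b line, at 40.5%. None was called lower by that rule at 4 hr, where 11.4% and 9.89% of all genes were, and by the adjusted p 9 and 6 were lower, with 28.9% and 24.5% of all genes. The absence of lower calls did not hold throughout: the Stat5b line had 2 without WT replicate 2 at 0 hr and 1 without WT replicate 3 at 4 hr, and the Stat5a line had 1 without replicate 1 or 3 at 0 hr or replicate 1 or 2 at 4 hr. Without WT replicate 2 at 4 hr the Stat5a line had 3 calls (2 higher and 1 lower), since Idi1 and Sc5d were then at 0.97 and 0.88, 17 higher and 8 lower at the adjusted p and a median of 0.14, and without WT replicate 1 at 4 hr it had 7 calls. At 24 hr 6 were higher and 2 lower in Stat5a WT (background 8.72% and 14.2%) and 8 higher and 2 lower in Stat5b WT (9.07% and 13.5%). At the adjusted p 26 and 27 of the 37 were higher by then and 3 were lower in each line, with 30.1% and 29.5% of all genes higher and 28.9% and 30.1% lower. The median went from 0.09 at 4 hr to 0.55 at 24 hr in the Stat5a line, and from 0.18 to 0.46 in the Stat5b line. Leaving out replicate 3 of Stat5a WT at 0 hr brought the calls at 24 hr from 8 to 13 (11 higher). The 2 lower at 24 hr were 1 without replicate 2 at 0 hr or replicate 1 or 3 at 24 hr in Stat5a WT, and without replicate 2 at 24 hr in Stat5b WT.

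Among the sterol enzymes, 9 of 17 in Stat5a WT and 10 of 17 in Stat5b WT were called higher at 48 hr and none lower, and 16 of 17 were higher at the adjusted p in each line. Idi1, which isomerises the isoprenoid building block, rose most. Its level was 5.62, 5.78 and 7.1 RPKM at 0 hr and 36.4, 43.8 and 56.1 RPKM at 48 hr in Stat5a WT, a log2 fold change of 2.67 ± 0.14 (6.38-fold, adjusted p = 1.6e-18). In Stat5b WT it went from 5.82, 4.23 and 5.09 RPKM to 49.9, 55.0 and 49.8 RPKM, by 3.18 ± 0.15 (9.04-fold, adjusted p = 2.4e-20). All 48 hr libraries lay above all 0 hr libraries in both lines. Fdps makes farnesyl diphosphate, the branch point towards sterols and protein prenylation. It rose from 11.7, 13.8 and 12.8 RPKM to 49.5, 63.3 and 57.1 RPKM in Stat5a WT (log2 fold change 1.94 ± 0.11) and from 14.5, 12.3 and 14.4 RPKM to 64.1, 70.8 and 65.3 RPKM in Stat5b WT (2.11 ± 0.11). The groups were again far apart. Sqle, squalene epoxidase, which makes the substrate of lanosterol synthase, rose by 1.93 ± 0.11 and 2.10 ± 0.11, Hmgcs1 by 1.32 ± 0.09 and 1.85 ± 0.09, and Cyp51, the lanosterol demethylase, by 1.52 and 1.90 in the Stat5a and Stat5b lines. The exception among the 17 was Tm7sf2, a sterol reductase, with -0.04 ± 0.17 (adjusted p = 0.83) and -0.24 ± 0.17 (adjusted p = 0.22).

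Of the fatty acid synthesis genes, Fasn and Acaca were called higher in both lines and Acly was higher at the adjusted p alone. Fasn, fatty acid synthase, stood at 13.6, 13.3 and 12.0 RPKM at 0 hr and 56.2, 65.7 and 51.1 RPKM at 48 hr in Stat5a WT. The fitted rise was 1.94 ± 0.11 there and 1.92 ± 0.11 in Stat5b WT, where the libraries went from 14.0, 14.0 and 14.8 RPKM to 60.3, 58.1 and 63.9 RPKM. Acaca, acetyl-CoA carboxylase, rose by 1.86 ± 0.10 and 1.87 ± 0.10. These 2 genes thus moved by nearly the same amount in the WT cells of both lines, with no overlap between times. Acsl5, which activates long-chain fatty acids, rose by 1.68 and 1.57 and became the most abundant of the 37.

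The desaturases did not move together. Scd2 and Scd1 both place the first double bond in saturated acyl chains. Scd2 was 6.4, 7.4 and 8.46 RPKM at 0 hr and 27.1, 51.9 and 45.2 RPKM at 48 hr in Stat5a WT (log2 fold change 2.27 ± 0.17, 4.82-fold), and rose by 2.23 ± 0.17 (4.69-fold) in Stat5b WT. At 24 hr it had not passed the test in either line, with 9.5, 10.9 and 9.35 RPKM in Stat5a WT and 10.1, 10.6 and 11.4 RPKM in Stat5b WT. Scd1 instead fell, from 11.6, 14.2 and 4.26 RPKM to 2.09, 3.06 and 2.32 RPKM in Stat5a WT (-2.22 ± 0.35, adjusted p = 6.8e-07) and from 4.33, 3.46 and 5.06 RPKM to 2.08, 2.74 and 1.72 RPKM in Stat5b WT (-1.15 ± 0.35, adjusted p = 0.0037), where the call was lost without replicate 3 at 0 hr or at 48 hr. Replicate 3 of Stat5a WT, the one with the lowest B cell markers, also had the lowest Scd1 at 0 hr. All 6 B cell and all 6 erythroid markers were likewise called lower at 48 hr than at 0 hr in WT cells of both lines, with 9 and 10 of the 10 myeloid markers. Of the CD4 T cell markers Cd4 and Foxp3, 1 was called lower in Stat5a WT and 2 in Stat5b WT. The 2 NK cell markers, Ncr1 and Klrb1c, were called higher in each line. The part of these cells in the fall of Scd1 and in the WT rise was not tested. Fads1, the delta-5 desaturase, rose by 1.64 and 1.66. Fads2, the delta-6 desaturase, was called higher in Stat5a WT (1.06 ± 0.38, adjusted p = 0.013) and did not pass in Stat5b WT (0.81 ± 0.38, adjusted p = 0.057).

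The regulators and carriers did not move together. Srebf2 did not pass the test at 48 hr, with 0.11 ± 0.11 (adjusted p = 0.36) and 0.03 ± 0.11 (adjusted p = 0.80), and Srebf1 was higher by 0.70 ± 0.15 and 0.57 ± 0.15. Stard4, a carrier that moves cholesterol between membranes, was called higher in both lines (1.58 and 1.78). The INSIG genes moved in opposite directions. Insig2 went from 1.73, 1.84 and 1.93 RPKM at 0 hr to 6.08, 6.08 and 6.58 RPKM at 4 hr in Stat5b WT, and was back to 3.9, 4.45 and 4.13 RPKM at 48 hr. Insig1, itself a known SREBP target, was lower at the adjusted p at 48 hr in Stat5a WT (-0.47 ± 0.09) and Stat5b WT (-0.25 ± 0.09, adjusted p = 0.0095). Its RPKM in Stat5b WT overlapped between times, 27.8, 20.2 and 23.0 RPKM at 0 hr and 22.2, 23.3 and 22.0 RPKM at 48 hr.

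**Figure D2:**
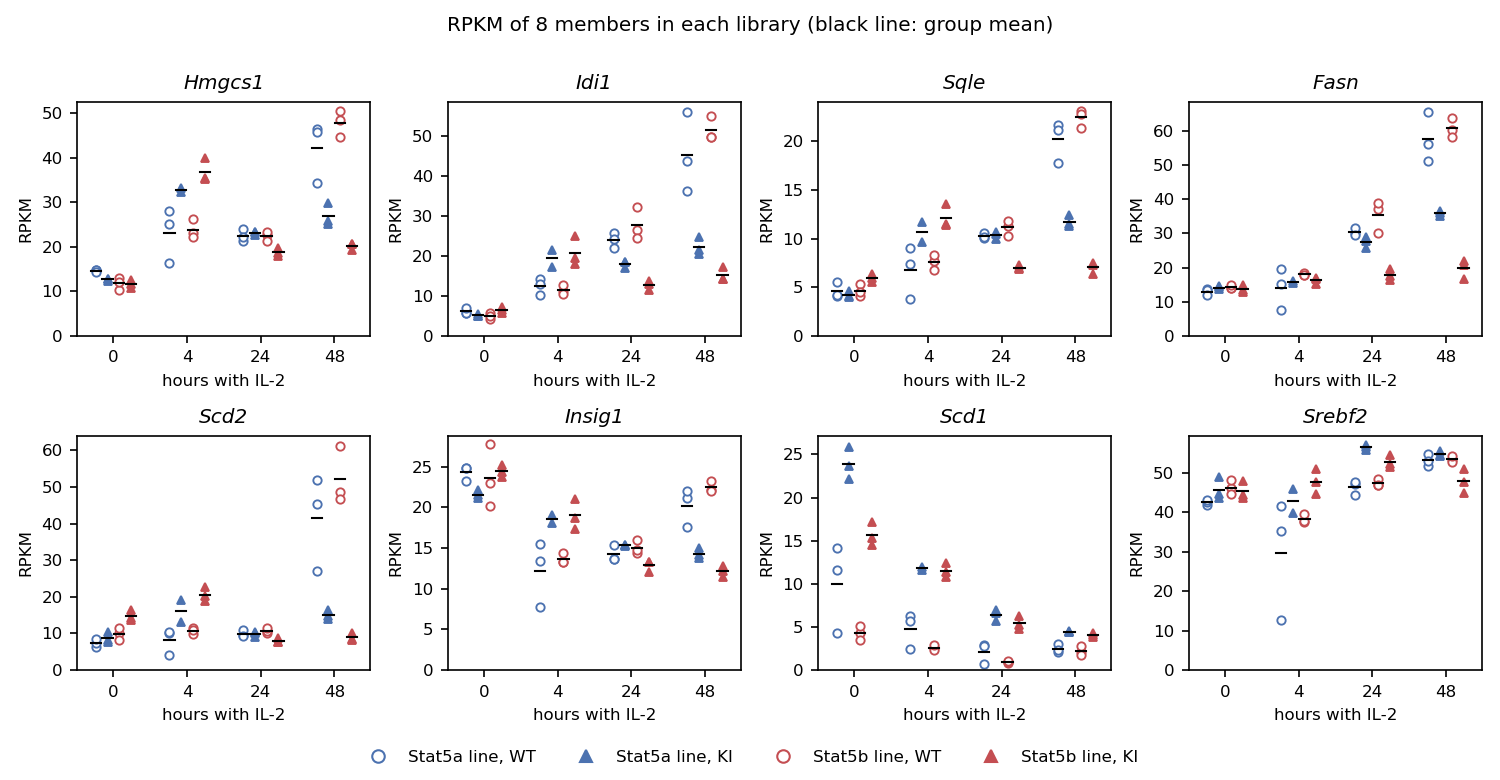
RPKM in every library used (points) for 8 genes at 0, 4, 24 and 48 hr in WT and KI cells of both lines, with a black line at each group mean. Idi1, Hmgcs1, Sqle, Fasn and Scd2 separate by genotype at 48 hr, with the Stat5b KI libraries of Scd2 at 8.2 to 10.0 RPKM against 46.6 to 61.1 RPKM in Stat5b WT.

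The second comparison asks what the rise is in cells whose STAT5A or STAT5B cannot be phosphorylated. In Stat5a KI cells it was kept in part, and in Stat5b KI cells most of it was missing. Stat5a KI cells had 13 genes called higher and 1 lower at 48 hr against their own 0 hr cells (background 9.31% and 16.7%, or 26% either way), with a median of 0.73, and 30 higher and 2 lower at the adjusted p (31.8% and 30.6% of all genes). Stat5b KI cells had 1 called higher, Idi1, and 3 called lower, Fads2, Insig1 and Scd1 (background 5.56% and 13.2%), with a median of 0.11 beside -0.02 over all genes. The higher call was lost without replicate 1 of Stat5b KI at 0 hr, and 2 were higher without its replicate 3 or without replicate 2 at 48 hr. At the adjusted p, 16 were higher and 7 lower in Stat5b KI, with 24.7% and 26.9% of all genes. At 4 hr, before most of the WT rise, the KI cells had responded as well, with 8 higher and 1 lower in Stat5a KI (background 6.58% and 11.2%), where 19 were higher and 5 lower at the adjusted p (25.2% of all genes each way), and 3 higher and none lower in Stat5b KI (4.92% and 8.85%), where 17 were higher and 4 lower at the adjusted p (22.8% and 25.7% of all genes). At 24 hr 5 were higher and 1 lower in Stat5a KI (7.36% and 13.8%), with 28 higher and 2 lower at the adjusted p (29.8% and 27.7% of all genes). In Stat5b KI none was higher and 4 were lower at 24 hr (4.59% and 11.2%), with 11 higher and 5 lower at the adjusted p (21.1% and 26.7%), and the 4 were 2 without replicate 2 or 3 of Stat5b KI at 0 hr or at 24 hr, with 1 higher in 3 of those 4 cases. The 5 were 3 without replicate 2 at 24 hr.

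Single genes showed the same gradation. In Stat5b KI cells at 48 hr against 0 hr, Fdps stood at -0.06 ± 0.10 (adjusted p = 0.67), Sqle at 0.05 ± 0.11 (adjusted p = 0.74) and Cyp51 at -0.09 ± 0.12 (adjusted p = 0.56). In Stat5a KI cells Fdps rose by 1.01 and Sqle by 1.23. Idi1 rose by 1.87 in Stat5a KI and by 1.05 ± 0.14 in Stat5b KI. Scd2 rose by 0.55 ± 0.16 (adjusted p = 0.0042) in Stat5a KI cells and fell in Stat5b KI cells, from 13.7, 16.5 and 14.2 RPKM to 8.51, 10.0 and 8.2 RPKM (-0.92 ± 0.17, adjusted p = 1.4e-05). Insig1 fell by 1.20 in Stat5b KI cells.

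**Figure D3:**
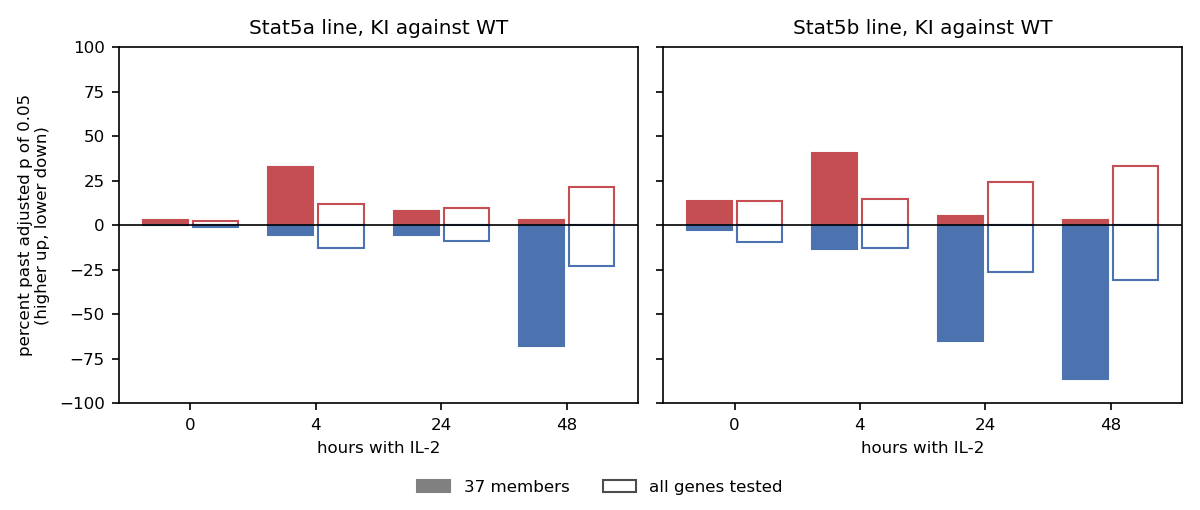
Percent of the 37 genes and of all genes tested that passed an adjusted p of 0.05 in KI against WT cells, higher drawn upwards and lower downwards, by time and line. The 37 lie above all genes on the higher side at 4 hr (32.4% and 40.5% in the Stat5a and Stat5b lines, the former from 12 genes that are 7 without WT replicate 2, 1 without KI replicate 1 and 0 with only the compared groups fitted) and on the lower side at 48 hr (67.6% and 86.5%).

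KI and WT cells were then compared at each time. At 48 hr most of the 37 genes were lower in KI cells, 32 in the Stat5b line and 25 in the Stat5a line at the adjusted p. Stat5b KI cells had 16 called lower and none higher, against a background of 9.81% lower and 16.5% higher: Acaca, Acat2, Acsl3, Acsl5, Cyp51, Fasn, Fdft1, Fdps, Hmgcs1, Hsd17b7, Idi1, Lss, Mvd, Scd2, Sqle and Stard4. At the adjusted p 32 were lower (86.5%, with 30.5% of all genes), while Tm7sf2, Insig2, Srebf2 and Elovl5 did not pass. The 1 that was higher, with 33.1% of all genes, was Scd1. It did not pass without WT replicate 1 or 3 or KI replicate 2 or 3. Stat5a KI cells had 2 called lower, Idi1 and Scd2, and none higher (background 2.43% and 6.35%). At the adjusted p 25 were lower (67.6%, with 22.8% of all genes) and 1, Tm7sf2, was higher, with 21.5% of all genes. The medians were -0.88 and -0.50 in the Stat5b and Stat5a lines, beside 0.10 and 0.04 over all genes. Summed over the 37 genes, Stat5b WT libraries held 961, 1006 and 981 RPKM and Stat5b KI libraries 552, 557 and 492 RPKM, and the Stat5a libraries 834, 975 and 923 RPKM in WT and 715, 690 and 667 RPKM in KI. Neither pair of groups overlapped. Without replicate 3 of Stat5a WT the calls in that line dropped to 1, since Idi1 was then at -0.95.

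Sterol enzymes made up most of the calls in the Stat5b line. In the Stat5b line 10 of the 17 were called lower and 16 were lower at the adjusted p, with a median of -1.05 and a range of -1.84 to -0.26, and in the Stat5a line 1 was called lower, 14 were lower at the adjusted p and the median was -0.53. Idi1 read 49.9, 55.0 and 49.8 RPKM in Stat5b WT and 14.2, 17.3 and 14.2 RPKM in Stat5b KI cells, a difference of -1.84 ± 0.14 (adjusted p = 5.8e-14). In the Stat5a line its KI libraries held 24.7, 20.5 and 21.4 RPKM, below the 36.4 of the lowest WT library (-1.09 ± 0.14, adjusted p = 4.1e-08). Both lines thus separated fully for Idi1. Fdps fell to 22.6, 22.5 and 17.4 RPKM in Stat5b KI cells from a WT low of 64.1 (-1.76 ± 0.11) and to 33.6, 31.9 and 29.7 RPKM in Stat5a KI from a WT low of 49.5 (-0.89 ± 0.10). Sqle read 21.4, 23.1 and 22.8 RPKM in Stat5b WT and 7.27, 7.5 and 6.35 RPKM in Stat5b KI (-1.75 ± 0.11), and 17.8, 21.7 and 21.1 RPKM against 12.4, 11.5 and 11.3 RPKM in the Stat5a line (-0.83 ± 0.11). The squalene epoxidase level in Stat5b KI cells at 48 hr was close to the 5.98, 6.38 and 5.52 RPKM of the same cells at 0 hr. Cyp51 differed by -1.70 ± 0.12 and -0.85 ± 0.12 and Hmgcs1 by -1.33 ± 0.09 and -0.70 ± 0.08 in the Stat5b and Stat5a lines. Hmgcs1, whose window holds the sterol element, read 44.7, 50.6 and 48.4 RPKM in Stat5b WT and 20.6, 20.6 and 19.3 RPKM in Stat5b KI. Tm7sf2 was the exception here too, with 1.94, 2.45 and 1.87 RPKM in Stat5a WT and 3.11, 3.18 and 3.53 RPKM in Stat5a KI (0.60 ± 0.17, adjusted p = 0.0043), and with -0.26 ± 0.17 (adjusted p = 0.19) in the Stat5b line.

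Fatty acid synthesis was lower as well. All 3 of its genes were lower at the adjusted p in the Stat5b line, Fasn and Acaca by the call rule, and Fasn and Acaca were lower at the adjusted p in the Stat5a line. Fasn read 60.3, 58.1 and 63.9 RPKM in Stat5b WT and 20.8, 21.8 and 16.6 RPKM in Stat5b KI (-1.70 ± 0.11, adjusted p = 2e-15). In the Stat5a line it read 56.2, 65.7 and 51.1 RPKM in WT and 35.1, 36.7 and 35.9 RPKM in KI (-0.73 ± 0.11, adjusted p = 1.3e-06). The KI libraries of this gene lay below the WT libraries in both lines, and those of Stat5b KI were the lowest. Acaca differed by -1.52 ± 0.10 and -0.67 ± 0.10, and Acly by -0.59 ± 0.10 and -0.23 ± 0.10 (adjusted p = 0.056) in the Stat5b and Stat5a lines.

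Scd2 showed the largest difference of the 37 in both lines. It read 48.7, 61.1 and 46.6 RPKM in Stat5b WT and 8.51, 10.0 and 8.2 RPKM in Stat5b KI (-2.63 ± 0.17, adjusted p = 1.7e-15), and 27.1, 51.9 and 45.2 RPKM in Stat5a WT and 16.4, 14.8 and 14.0 RPKM in Stat5a KI (-1.51 ± 0.17, adjusted p = 3.7e-09). No libraries of the compared genotypes overlapped, although replicate 1 of Stat5a WT was well below its companions. Fads1 was lower in the Stat5b line (-0.88 ± 0.13) and did not pass in the Stat5a line (-0.15 ± 0.12, adjusted p = 0.35). Fads2 was lower at the adjusted p in the Stat5b line (-0.90 ± 0.38, adjusted p = 0.04) and did not pass in the Stat5a line (-0.60 ± 0.37, adjusted p = 0.19). Elovl6, which extends palmitate to stearate, differed by -0.36 ± 0.10 and -0.29 ± 0.10. Of the acyl-CoA synthetases, Acsl5 differed by -1.09 ± 0.08 and -0.54 ± 0.08 and Acsl4, which prefers arachidonate, by -0.70 ± 0.11 and -0.52 ± 0.11. The mitochondrial thiolase Acat1 differed by -0.60 ± 0.09 and -0.26 ± 0.09, in the Stat5b and Stat5a lines in that order.

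**Figure D4:**
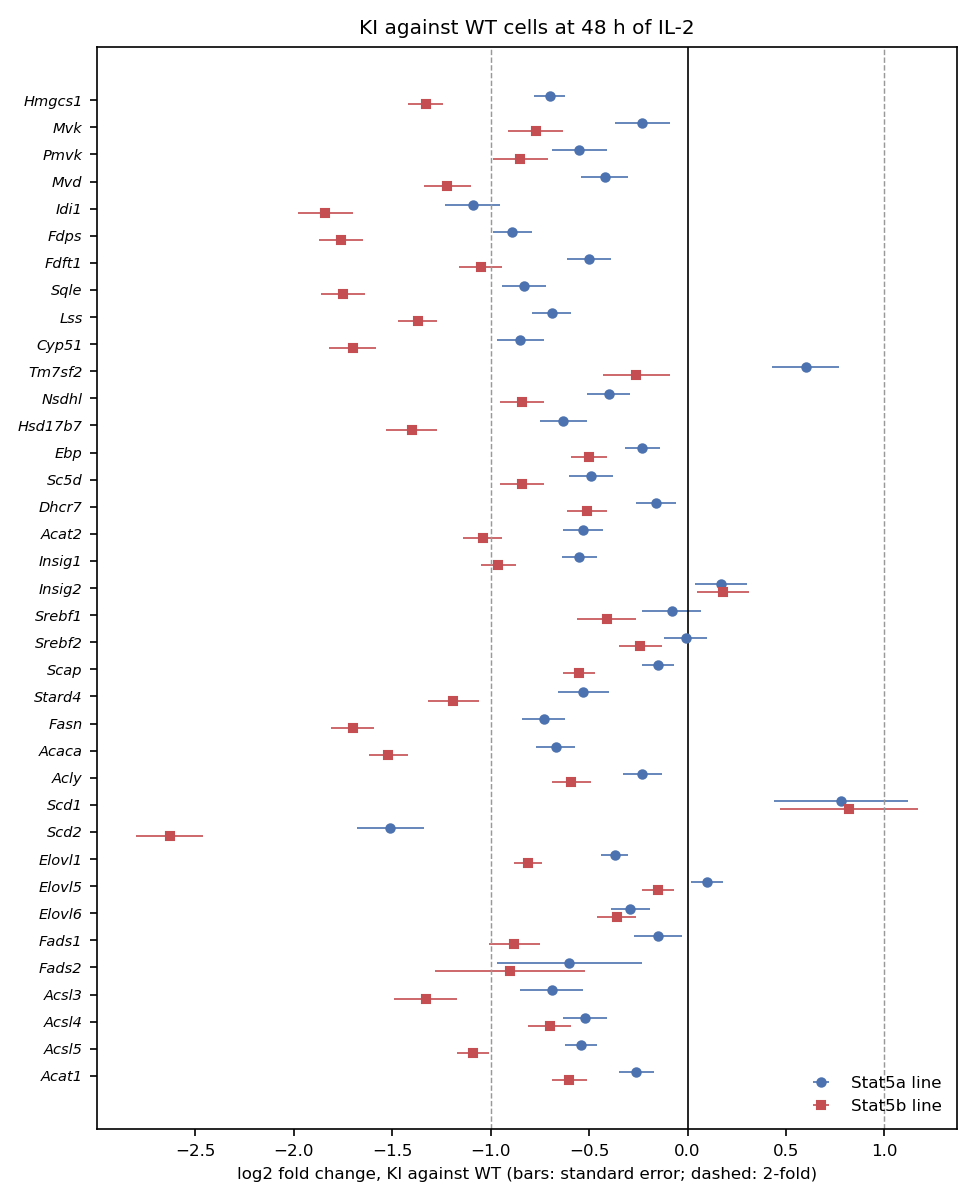
Log2 fold change with its SE in KI against WT cells at 48 hr for each of the 37 genes in both lines, with dashed lines at a fold of 2 either way. In the Stat5b line 16 genes pass the lower line and the adjusted p, against 2 in the Stat5a line, and Scd1 lies above 0 in both.

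The transcription factors and their escort showed small differences. Srebf2 read 53.1, 52.7 and 54.2 RPKM in Stat5b WT and 50.8, 47.6 and 44.9 RPKM in Stat5b KI (-0.24 ± 0.11, adjusted p = 0.059), and did not pass in the Stat5a line (-0.01 ± 0.11, adjusted p = 0.98). The spread behind these SE includes WT replicate 2 of the Stat5a line at 4 hr. Without that library the SE of Srebf2 in KI against WT at 4 hr in that line was 0.06. Srebf1 was lower in the Stat5b line (-0.41 ± 0.15, adjusted p = 0.014) with -0.08 ± 0.15 (adjusted p = 0.71) in the Stat5a line. Scap, the escort, differed by -0.55 ± 0.08 and -0.15 ± 0.08 (adjusted p = 0.14). Insig1, in contrast to Insig2, was lower in both lines. It read 22.2, 23.3 and 22.0 RPKM in Stat5b WT and 12.2, 12.8 and 11.5 RPKM in Stat5b KI (-0.96 ± 0.09), and 17.6, 21.1 and 22.0 RPKM against 15.0, 14.2 and 13.8 RPKM in the Stat5a line (-0.55 ± 0.09). Insig2 was at 0.18 ± 0.13 and 0.17 ± 0.13, neither past the test, and Stard4 was called lower in the Stat5b line (-1.19 ± 0.13) and lower at the adjusted p in the Stat5a line (-0.53 ± 0.13).

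Before 48 hr the picture was different. At 0 hr few of the 37 differed, with Scd1 the 1 call in the Stat5a line (background 0.861% higher and 0.18% lower) and Scd1 and Fads2 the 2 calls in the Stat5b line (7.38% and 0.604%), these calls being higher in KI cells. By the adjusted p the Stat5a line had 1 higher and none lower (2.56% and 0.88% of all genes), and the Stat5b line 5 higher and 1, Elovl5, lower (13.6% and 9.26%). The 5 were 2 without replicate 2 of WT or of KI, and Elovl5 did not pass without WT replicate 1. The call in the Stat5a line was lost without any 1 of WT replicates 1 and 3 and the 3 KI libraries, and the Stat5b line kept 1 call without WT replicate 1 or 2 or KI replicate 1 or 2. At 4 hr the sterol enzymes that passed the test were mostly higher in KI cells, 10 of 17 in the Stat5b line and 8 of 17 in the Stat5a line (4 of 17 without WT replicate 2), with Acat2 lower in both. In the Stat5b line 15 of the 37 were higher at the adjusted p and 5 lower (40.5% and 13.5%, with 14.5% and 12.8% of all genes), with a median of 0.20, and the 5 were 3 without replicate 3 of WT or of KI. By the call rule 2 were higher, Fads2 and Scd1, and 2 lower, Acat2 and Elovl6 (background 9.2% and 1.23%). In the Stat5a line, where none was called by edgeR or DESeq2 (background 2.47% higher and 4.16% lower) and 23 had an unadjusted p under 0.05, 12 were higher and 2 lower at the adjusted p (32.4% and 5.41%, with 11.9% and 12.7% of all genes). Those 12 fell to 7 without WT replicate 2 and to 1 without KI replicate 1, were 16 without WT replicate 1, and were 0 when only the compared groups were fitted, and by the call rule 1 or 2 genes were called when any 1 library was left out, so the 4 hr result of the Stat5a line rests on few libraries.

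In the Stat5b line at 4 hr Hmgcs1 read 23.0, 22.2 and 26.2 RPKM in WT and 35.4, 40.0 and 35.3 RPKM in KI (0.52 ± 0.08, adjusted p = 1.5e-05), and Idi1 11.3, 10.6 and 12.7 RPKM against 17.9, 25.1 and 19.4 RPKM (0.74 ± 0.14, adjusted p = 8.2e-05). All KI libraries were above all WT libraries for both genes, the reverse of their order at 48 hr. At 4 hr the B cell markers summed to 37.5 to 48.8 RPKM in Stat5b WT and 179.9 to 198.8 RPKM in Stat5b KI. The myeloid markers summed to 16.1 to 20.9 RPKM and 67.9 to 82.7 RPKM, and the erythroid markers to 34.7 to 91.2 RPKM and 336 to 815.7 RPKM. In the Stat5a line the B cell markers at 4 hr summed to 41.4 to 126.4 RPKM in WT and 193 to 293.3 RPKM in KI. The myeloid sums there did not overlap (13.9 to 18.2 RPKM in WT and 26.5 and 52.1 RPKM in KI). The erythroid sums there overlapped (60.2 to 292.1 RPKM and 165.9 to 391.6 RPKM). The part of these cells in the 4 hr differences was not tested. Pmvk, which phosphorylates phosphomevalonate, was higher by 0.84 ± 0.14 in the Stat5b line and 0.99 ± 0.16 in the Stat5a line (0.88 ± 0.16 without WT replicate 2). Acat2, which condenses acetyl-CoA at the head of the pathway, went the other way from these enzymes at 4 hr, with 12.8, 14.1 and 15.9 RPKM in Stat5b WT and 6.24, 7.55 and 6.77 RPKM in Stat5b KI (-1.17 ± 0.10, adjusted p = 3.6e-11) and with -0.45 ± 0.11 (adjusted p = 0.0045) in the Stat5a line, or -0.49 ± 0.11 without WT replicate 2. Elovl6 was also lower, with 5.65, 6.89 and 6.73 RPKM in Stat5b WT against 3.1, 2.96 and 3.11 RPKM in Stat5b KI (-1.18 ± 0.11) and with -0.90 ± 0.12 in the Stat5a line, or -0.93 ± 0.13 without WT replicate 2. These 2 genes had risen in WT cells by 4 hr.

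At 24 hr the lower side had begun to fill in the Stat5b line. There 24 of the 37 were lower at the adjusted p (64.9%, with 26.3% of all genes) and 2 higher (with 24.1% of all genes), with a median of -0.35. By the call rule Fasn and Idi1 were lower and Fads2 and Scd1 higher (background 5.77% lower and 10.9% higher). Those 4 calls were 2 without KI replicate 1, 1 each way, and the lower calls were 1 without WT replicate 2 or KI replicate 3. Idi1 read 26.5, 24.6 and 32.3 RPKM in Stat5b WT and 13.8, 13.1 and 11.4 RPKM in Stat5b KI (-1.15 ± 0.14), and Fasn 37.3, 38.9 and 30.1 RPKM against 16.5, 19.7 and 17.6 RPKM (-1.01 ± 0.11). No libraries overlapped for these genes. At 24 hr the B cell markers summed to 22.1 to 29.1 RPKM in Stat5b WT and 154.5 to 179 RPKM in Stat5b KI. The myeloid markers summed to 6.45 to 10.7 RPKM and 41.9 to 81.1 RPKM, and the erythroid markers to 17.9 to 35.6 RPKM and 184.9 to 420.4 RPKM. Their part in the 24 hr differences was not tested. In the Stat5a line 2 were lower at the adjusted p, Idi1 and Acsl5, and 3 higher (9.01% and 9.49% of all genes), and Fads2 and Scd1 were called higher (background 3.21% higher and 1.24% lower), 1 of them without WT replicate 1 or 3 or KI replicate 1 or 2.

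Scd1 was higher in KI cells where it passed the test. The study lists Scd1 and Scd2 among STAT5-bound genes with diminished expression in KI cells of either or both lines. Scd2 was lower in KI cells of both lines at 48 hr, as given above, whereas the Scd1 values had the opposite direction. At 0 hr Scd1 read 4.33, 3.46 and 5.06 RPKM in Stat5b WT and 15.3, 14.5 and 17.2 RPKM in Stat5b KI (1.81 ± 0.34, adjusted p = 0.00019), and 11.6, 14.2 and 4.26 RPKM against 25.9, 22.2 and 23.7 RPKM in the Stat5a line (1.23 ± 0.33, adjusted p = 0.032). At 24 hr it read 0.796, 0.967 and 1.01 RPKM in Stat5b WT and 5.27, 4.8 and 6.27 RPKM in Stat5b KI (2.53 ± 0.37, adjusted p = 4.4e-07), with 1.52 ± 0.35 (adjusted p = 0.0019) in the Stat5a line. At 48 hr the difference was 0.82 ± 0.35 (adjusted p = 0.038) and 0.78 ± 0.34 (adjusted p = 0.063) in the Stat5b and Stat5a lines. Scd1 was thus higher in every KI library than in any WT library of its line at 0, 24 and 48 hr. The B cell markers had the same order: at 48 hr they summed to 9.94 to 12 RPKM in Stat5b WT and 111.4 to 117.6 RPKM in Stat5b KI, and to 11.9 to 35.7 RPKM in Stat5a WT and at least 91 RPKM, with a mean of 100.1 RPKM, in Stat5a KI. All 6 were called higher in KI cells of both lines at 48 hr, as were 10 of 10 myeloid markers in the Stat5b line and 8 of 10 in the Stat5a line, and 6 of 6 and none of 6 erythroid markers. The CD4 T cell markers Cd4 and Foxp3 were called higher in Stat5b KI, and 1 of the 2 in Stat5a KI, while of the NK cell markers Ncr1 and Klrb1c 1 was higher and 1 lower in Stat5b KI and none was called in Stat5a KI. The myeloid markers, led by Lyz2, summed to 3.57 to 4.95 RPKM in Stat5b WT and 63.9 to 99.8 RPKM in Stat5b KI at 48 hr. In the Stat5a line they summed to 3.71 to 8.99 RPKM and 25.3 to 68.2 RPKM. The erythroid markers, led by Hbb-bs, summed to 4.71 to 8.27 RPKM and 110.8 to 206.1 RPKM in Stat5b WT and KI. Their Stat5a sums at 48 hr were 6.4 to 8.02 RPKM in WT and 17.9 to 22.5 RPKM in KI. The part of these cells in the Scd1 and Fads2 values, and in the lower values of the other genes, was not tested. The CD8 and CD3 markers summed to 1498 to 1667 RPKM in Stat5b KI and 1505 to 1661 RPKM in Stat5a KI at 48 hr. These sums lay above the 1030 to 1062 RPKM and 1062 to 1184 RPKM of the WT libraries, with none of the 5 called. At 0 hr the order was reversed, with 953.8 to 1016 RPKM in Stat5b KI and 1158 to 1298 RPKM in Stat5b WT. The Stat5a sums at 0 hr were 836.7 to 881.3 RPKM in KI and 932 to 1164 RPKM in WT.

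The change over 48 hr was then compared directly between genotypes, as an interaction on the same libraries. In the Stat5b line the change of 18 of the 37 was more negative in KI than in WT cells by the call rule and that of none more positive (background 11.1% lower and 10.3% higher), and 30 were more negative at the adjusted p (81.1%, with 25.6% of all genes), with a median of -0.99. Among these, Insig1 fell further in KI cells and Fads2 fell in KI cells. The 7 that did not pass were Tm7sf2, Insig2, Srebf1, Srebf2, Scd1, Elovl5 and Elovl6. In the Stat5a line 1 was called, Scd2 (background 3.09% lower and 3.16% higher), with a median of -0.32. At the adjusted p 16 were more negative (43.2%, with 16.2% of all genes) and 1, Tm7sf2, more positive (with 11.8% of all genes). The 16 were 8 with all 48 libraries. Without replicate 1 of Stat5a WT at 48 hr the calls there were 3, and Tm7sf2 did not pass without any 1 of 7 of the 12 libraries. The difference of responses was -3.15 ± 0.24 for Scd2, -2.17 ± 0.15 for Fdps and -2.13 ± 0.20 for Idi1 in the Stat5b line, and -1.72 ± 0.23, -0.93 ± 0.15 and -0.80 ± 0.19 for the same genes in the Stat5a line.

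Whether the KI alleles differ was tested as the difference between the lines of the KI against WT contrast at 48 hr. The KI effect was more negative in the Stat5b line for 20 of the 37 at the adjusted p and more positive for none (54.1%, with 7.83% of all genes lower and 3.2% higher), with a median difference of -0.51 beside 0 over all genes. That count depends on the fit: it was 5 with all 48 libraries, 9 with limma on log2(RPKM + 1), 31 with only the compared groups fitted, and 15 to 22 when 1 library was left out. By the call rule only Scd2 passed (-1.12 ± 0.23, adjusted p = 0.0014, background 0.514% lower and 1.55% higher), and that call was lost without replicate 1 of Stat5a WT or replicate 2 of Stat5b WT at 48 hr, while 2 genes were called without replicate 2 of Stat5a WT or of Stat5b KI. Fasn (-0.97 ± 0.16), Sqle (-0.92 ± 0.15), Fdps (-0.87 ± 0.15), Idi1 (-0.75 ± 0.19) and Hmgcs1 (-0.63 ± 0.12) were past the adjusted p with smaller differences. Sterol enzymes made up 11 of the 20, 2 of the 3 fatty acid synthesis genes were among them, and Elovl6 (-0.07, adjusted p = 0.84), Acsl4 (-0.18, adjusted p = 0.51), Srebf2 (-0.23, adjusted p = 0.39) and Insig2 (0.02, adjusted p = 0.98) were not. The lines also differ in their marker values, above, and the mice of the lines were bred separately, so allele and line cannot be told apart.

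Neighbouring pathways give a frame for the 37. Of 19 genes of sterol handling and efflux, 3 were called higher and 3 lower in Stat5b KI cells at 48 hr (15.8% each way, with 16.5% and 9.81% of all genes) and 2 higher and 1 lower in Stat5a KI (10.5% and 5.26%, with 6.35% and 2.43% of all genes), with medians of 0.03 and 0.07. Nr1h3, which codes for the oxysterol receptor LXR alpha and is abundant in macrophages, was higher by 3.15 ± 0.38 and 1.96 ± 0.35 in the Stat5b and Stat5a lines, alongside the myeloid markers, whose part was not tested. Tmem97, a sterol-responsive membrane protein, was lower by -2.57 ± 0.15 and -1.45 ± 0.15, after a rise in WT cells of 3.35 and 3.09 over 48 hr. Of 24 tested among 25 further genes of fatty acid synthesis and activation, 4 were called higher and 3 lower in the Stat5b line (16.7% and 12.5%) and 2 and 3 in the Stat5a line (8.33% and 12.5%), beside the same shares of all genes, with medians of -0.08 and -0.24. The named genes there had wide errors: Acsl6 was at -2.70 ± 0.86 and -2.53 ± 0.85, Elovl2 at -3.42 ± 1.21 in the Stat5a line and Ptplad2, the older symbol of Hacd4, at 3.53 ± 1.19 in the Stat5b line. Of 17 genes of fatty acid oxidation none was called by edgeR in either line at 48 hr, 3 were higher and 8 lower at the adjusted p in the Stat5b line (17.6% and 47.1%, with 33.1% and 30.5% of all genes) and 3 and 2 in the Stat5a line (17.6% and 11.8%, with 21.5% and 22.8%), and the medians were -0.14 and -0.01. Over all genes tested the medians were 0.10 and 0.04, and none of these lists was tested against the 37.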

How the data were processed

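RNA-seq was performed on poly(A) RNA (100 ng of total RNA, 50 bp single-end reads). Per the study's methods, reads were aligned to mm10 with TopHat2 2.0.11, which runs Bowtie2, and unique reads were counted on RefSeq transcripts; the counting program and any use of strand were not given in the sources used here, so antisense overlaps cannot be separated. The authors deposited raw read counts per transcript. The authors deposited RPKM values for the same transcripts, scaled by all mapped reads. The longest transcript stood for each symbol (28 of the 37 genes have 1 transcript). The 47 libraries were fitted together with edgeR 4.0.16 (quasi-likelihood, TMM, filterByExpr with a minimum count of 10, 1 mean per group, R 4.3.3), with Benjamini-Hochberg adjustment over 15566 genes. At this depth a floor of 3 counts lay between 0.0498 and 0.173 CPM. The procedure was tested on simulated data. Replicate pairs all differed beyond sampling noise (chi-square per gene of 4.83 to 1940 over 48 pairs). Replicate numbers paired the libraries in no sense that the labels state; among comparisons with 3 pairs, same-number correlations of deviations were all over 0.1 in Stat5a WT at 24 hr (0.206, 0.273 and 0.419) and 48 hr (0.166, 0.117 and 0.192) against 0 hr and in no other, and the 2 pairs of Stat5a KI at 4 hr against 0 hr gave 0.161 and 0.181.

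Genes with library values were named by role (Hmgcs1, Sqle, Idi1, Fdps, Cyp51, Insig1, Srebf1, Srebf2, Fasn, Acaca, Scd1, Scd2, Fads1, Fads2, Elovl6, Acsl4, Acsl5), with the 3 largest called rises and falls per 48 hr comparison and, in each other list, the 2 called genes with the largest change; Tm7sf2, Acat2, Pmvk, Lss, Insig2, Stard4, Scap, Acly and Acat1 were described as exceptions or examples after their values were seen. The 37 genes, the other lists and the comparisons were chosen with earlier results of these data known. Alternatives were DESeq2 1.42.0 and its size factors, limma 3.58.1 on log2(RPKM + 1), no filter on low counts, all 48 libraries, the groups compared alone, the shortest transcript, a replicate block and leaving out each library. The chromatin sample was not analysed here.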

Additional observations from a re-analysis of the deposited data

Results flagged for a closer look

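Each of the following was picked out because a test of the difference itself, the interaction in the edgeR fit, passed an adjusted p of 0.05 and a fold of 2; all values are differences of log2 fold changes. For the change over 48 hr of IL-2, KI minus WT, Scd2 differed by -1.72 in the Stat5a line. In the Stat5b line the difference was -3.15 for Scd2, -2.17 for Fdps, -2.13 for Idi1, -2.05 for Sqle, -2.04 for Fads2 and -2.00 for Cyp51. It was -1.59 for Acsl3, -1.58 for Fasn, -1.54 for Acaca, -1.41 for Lss, -1.32 for Pmvk, -1.30 for Stard4 and -1.30 for Acsl5. It was -1.26 for Hmgcs1, -1.26 for Fdft1, -1.18 for Acat2, -1.17 for Hsd17b7 and -1.01 for Fads1. Of these, Fads2 was higher in Stat5b KI than WT at 0 hr and lower at 48 hr, beside B cell, myeloid and erythroid markers that were higher in KI at both times, and their part was not tested. For KI against WT at 48 hr, Stat5b line minus Stat5a line, Scd2 differed by -1.12. The groups of 3 libraries were too small for an outlier test.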

How the results depend on the processing

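Over 85 values of the 17 named genes in 5 comparisons at 48 hr there were 1292 alternative values. Of these, 1264 kept their side of the threshold, 12 were no longer past it and 16 were newly past it. Among values past the adjusted p in the main fit 0 changed direction, and direction was not compared for the rest. Counts of called members changed by over 1.5 times as follows (counts at the adjusted p alone are given at the end). With limma on log2(RPKM + 1), which shifts the median of all genes by 0.11 to 0.285 in 13 comparisons, the IL-2 comparisons gave 2 in place of 4 in Stat5a WT at 4 hr, 1 in place of 4 in Stat5b KI at 24 hr and 2 in place of 4 at 48 hr. KI against WT gave 2 in place of 0, 1 in place of 2 and 1 in place of 2 in the Stat5a line at 4, 24 and 48 hr, and 1 in place of 2, 2 in place of 4 and 2 in place of 4 in the Stat5b line at 0, 4 and 24 hr. With all 48 libraries, KI against WT gave 0, 2 and 1 in the Stat5a line at 0, 4 and 24 hr and 1 in the Stat5b line at 0 hr, and the line difference gave 0. With the compared groups alone, KI against WT at 0 hr in the Stat5a line gave 0 in place of 1. The replicate block gave 1 in place of 0 for KI against WT at 4 hr in the Stat5a line and moved no other count by over 1.5 times. The numbers are not known to mark pairs. Erythroid sums of Stat5b KI replicates 1, 2 and 3 kept their order at every time. They were 969.4, 390.7 and 571.1 RPKM at 0 hr and 206.1, 110.8 and 170.0 RPKM at 48 hr. The block was shared by WT and KI of a line, so a link of same-numbered libraries within a genotype was not tested. All causes of these changes were not tested. Leaving out 1 library at a time gave these ranges of calls for IL-2 at 4, 24 and 48 hr: 3 to 7, 6 to 13 and 19 to 23 in Stat5a WT; 8 to 9, 5 to 7 and 12 to 14 in Stat5a KI; 3 to 4, 9 to 13 and 21 to 23 in Stat5b WT; and 3 to 4, 2 to 3 and 3 to 5 in Stat5b KI. For KI against WT at 0, 4, 24 and 48 hr they were 0 to 1, 1 to 2, 1 to 2 and 1 to 2 in the Stat5a line and 1 to 2, 4 to 4, 2 to 5 and 16 to 17 in the Stat5b line. For the interaction they were 1 to 3 and 17 to 19 in the Stat5a and Stat5b lines, and for the line difference 0 to 2. At the adjusted p alone, counts of 5 or more moved by over 1.5 times as follows. All 48 libraries gave 5 lower in place of 20 for the line difference, 8 in place of 16 for the Stat5a interaction and 3 in place of 5 for Stat5b KI at 24 hr; for KI against WT they gave 5 higher in place of 12 in the Stat5a line at 4 hr, and in the Stat5b line 1 higher in place of 5 at 0 hr, 2 lower in place of 5 at 4 hr and 15 lower in place of 24 at 24 hr. With limma the line difference had 9 lower, Stat5a KI and Stat5b WT at 4 hr had 1 and 2 lower in place of 5 and 6, and KI against WT at 4 hr had 27 higher in the Stat5a line and 2 lower in the Stat5b line. With the groups compared alone the line difference had 31 lower, Stat5a WT at 4 hr 3 lower in place of 9, Stat5b KI at 24 hr 20 higher in place of 11, and KI against WT at 4 hr in the Stat5a line 0 higher. Counts of 0 to 3 also moved, to between 0 and 6. Leaving out 1 library moved counts at the adjusted p of 5 or more by over 1.5 times in 5 comparisons: 12 higher to 1 and 7 for KI against WT at 4 hr and 11 higher to 17 for WT at 4 hr in the Stat5a line, and 5 higher to 2 for KI against WT at 0 hr, 5 lower to 3 at 4 hr and 5 lower to 3 for KI at 24 hr in the Stat5b line; counts of 1 to 3 moved to between 0 and 1. Fads2 and Scd1, among the lower in level, had the widest SE of the named genes in KI against WT at 48 hr (0.38 and 0.35 in the Stat5b line). Floors cover counting error only.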
